A study of Mus musculus with 16 samples.

Results

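The mitochondrial ribosomal protein genes were followed across every group of mouse small cell lung cancer cells in this series. They were taken by name, as each gene whose symbol in the platform annotation was Mrpl or Mrps followed by a number and, for some, a letter from a to c. The rule gave 74 of 12393 genes, on 127 of the 20380 probe sets that carried 1 gene symbol. Where a gene had several probe sets, the one with the highest average signal across all 16 arrays stood for it. By symbol, 47 genes belong to the large subunit and 27 to the small subunit. All 74 passed the filter on dim signals, which asked for a value above log2 4 on at least 2 arrays, and their mean log2 signals lay between 7.06 and 12.24, well over that limit.

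Mitochondria hold a ribosome of their own, which translates the few proteins encoded in mitochondrial DNA, all of them subunits of the respiratory chain and the ATP synthase. Its RNAs come from mitochondrial DNA, but its proteins are encoded in the nucleus, made in the cytosol and imported, so that the ribosome can only be built when nuclear and mitochondrial genes are expressed together. Many of its proteins have bacterial relatives and share their numbers, and others were added during the evolution of the organelle. MYC family transcription factors are known as activators of genes for ribosome building and for mitochondria.

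The study measured messenger RNA on 16 Affymetrix arrays in 2 lines, 3583T3 and 3151T4, grown from dissociated mouse small cell lung tumours. Each line was measured untransfected (control), with Nfib, with Mycl1 and with both, 2 arrays for each of the 8 groups and 4 for each vector. Nfib, a member of the nuclear factor I transcription factors, was delivered as a FLAG-tagged complementary DNA in MSCV-Nfib-PGK-Neo with G418 selection. Mycl1 (L-Myc, current symbol Mycl) is a MYC family transcription factor, delivered in MSCV-L-myc-PGK-Puro with puromycin selection. Cells labelled Nfib+Mycl1 carried both vectors; MSCV is a retroviral vector, and both inserts had a Kozak sequence. The control cells were untransfected, so in comparisons with control the transgene, the vector and the selection cannot be told apart. Nothing in the labels says that the 2 arrays of a group came from separate cultures, and the p-values therefore reflect array-to-array spread that may be purely technical.

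On 2 arrays the Mycl probe set that followed the transgene went against the label. It stood at 10.22 on 3583T3 Nfib replicate 2, where it should be low, and at 2.67 on 3583T3 Nfib+Mycl1 replicate 2, where it should be high. Both arrays were kept as labelled, and the count of called genes in each comparison is given also without them. The probe sets of Nfib were not higher with its vector, and 1 of 3 Mycn probe sets stood at 2.03 to 2.56 on control arrays and at 12.19 to 13.26 on all arrays with any vector. Of 10 neuroendocrine markers 8 were on the array. Ncam1 and Uchl1 were well above log2 4 on all 16 arrays, while Chga, Chgb, Syp and Dll3, defining markers of the labelled tumour type, were below it on every array. Ddc was above it on 8 arrays (highest 10.71) and Insm1 on only 2 (highest 5.51). Of 15 macrophage and leukocyte genes on the array, 14 could be tested. Some of them, such as C1qb, Ctss, Laptm5, Tyrobp and Fcer1g, were above log2 4 on only 4 of the 16 arrays. A gene above the limit only in control cells enters the test through those cells, so the filter favoured falls versus control. The group mean was below log2 4 for 1 and 4 of the 15 in the control groups and for 11 to 15 in the groups with a vector. Their summed level was 12.76 to 14.33 on control arrays and 6.67 to 9.72 on arrays with a vector (log2 of the summed signal). Of 8 fibroblast genes, 6 were above log2 4 on all 16 arrays, among them Col1a1 (11.67 to 12.73) and Dcn (4.75 to 12.03), whereas Thy1 was above it on 11 arrays and Lum on 5. In such bulk RNA, fewer cells of a type and less RNA per cell cannot be told apart.

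Taken array by array, the mitochondrial ribosomal protein genes stood higher in cells with Mycl1 than in control cells of the same line. In 3583T3 the median log2 signal of the 74 genes was 9.79 and 9.84 on the control arrays, 9.88 and 10.17 with Nfib, 10.27 and 9.96 with Mycl1, and 10.27 and 10.15 with both. In 3151T4 it was 10.02 and 9.64 on the control arrays, 9.84 and 9.92 with Nfib, 10.30 and 10.46 with Mycl1, and 10.46 and 10.56 with both. The Mycl1 and Nfib+Mycl1 arrays lay above the control arrays in both lines without overlap. The Nfib arrays lay above both control arrays in 3583T3, where the higher of them is the one whose Mycl signal went against its label, and between the control arrays in 3151T4.

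**Figure D1:**
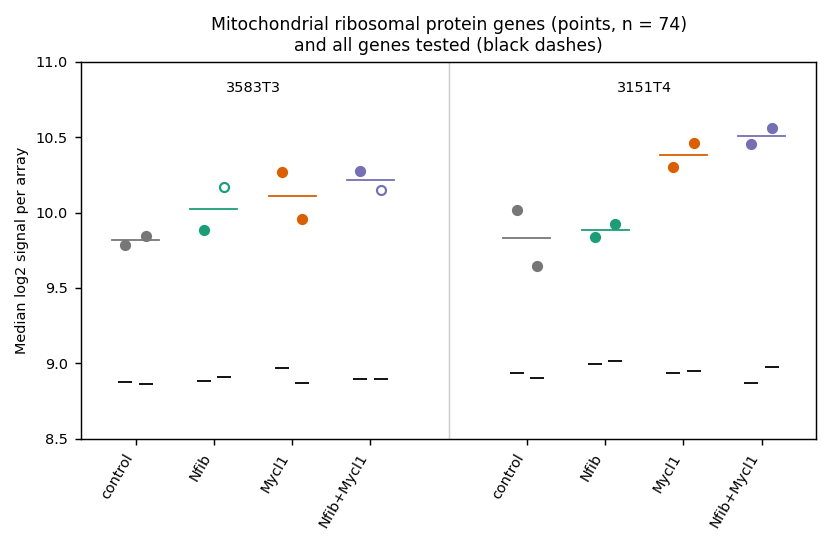
Median log2 signal of the 74 mitochondrial ribosomal protein genes on each of the 16 arrays (points; short lines are the means of the 2 arrays of a group) and median of the 8777 genes tested (black dashes), by line and vector; open points are the 2 arrays whose Mycl signal went against the label. The points of 3583T3 run from 9.79 (control) to 10.27 and those of 3151T4 from 9.64 (control) to 10.56 (both vectors), while the dashes stay near 8.9.

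With Mycl1 alone, compared with untransfected cells, 21 of 74 genes rose and none fell. Over all 8777 genes tested, 6.63% were called higher and 4.69% lower. A gene was called at an adjusted p under 0.05 in limma, with Benjamini-Hochberg adjustment over all genes tested, and n is 4 arrays per vector throughout. All 74 changes were positive, and their median was 0.39 on the log2 scale (1.31-fold) against 0.03 over all genes tested. The changes ran from 0.08 in Mrps21 to 0.91 in Mrps5, so no gene reached a doubling. Within 3583T3, both Mycl1 arrays exceeded both control arrays in 50 of 74 genes, and within 3151T4 in 58 of 74; over all genes tested the shares were 27.4% and 32.1%. In the same comparison all 14 macrophage and leukocyte genes tested fell, a count that the filter favoured. Of 8 fibroblast genes 2 fell (log2 change -1.63 for Pdgfra and -2.39 for Dcn). The part of these genes in the result was not tested.

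Mrps5, a small-subunit protein related to bacterial S5, had the largest change. Its log2 signal in 3583T3 was 6.92 and 6.89 on the control arrays against 7.53 and 7.56 with Mycl1. In 3151T4 it was 6.28 and 6.27 on the control arrays against 7.55 and 7.36 with Mycl1. The groups did not overlap in either line, and the change was 0.91 ± 0.21 (SE; limma, adjusted p = 0.0209; higher in 4 of 4 arrays). Here and below, an array counted as higher if it exceeded the mean of the compared group in its line. Mrpl34, a large-subunit protein with a bacterial relative, had control signals of 10.26 and 10.19 in 3583T3 and 10.24 and 9.96 in 3151T4. With Mycl1 it had 11.19 and 10.91 in 3583T3 and 10.70 and 11.24 in 3151T4, again with no overlap, a change of 0.84 ± 0.20 (adjusted p = 0.0217). Mrpl16, which lies near the peptidyl transferase site of the large subunit, had the smallest p. It went from 10.81 and 10.96 to 11.49 and 11.24 in 3583T3 and from 10.21 and 10.15 to 11.09 and 11.06 in 3151T4, a rise of 0.69 ± 0.13 (adjusted p = 0.00773).

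Of the other genes named by size of rise, Mrpl38 rose by 0.77 ± 0.24 (adjusted p = 0.0491) and Mrpl47 by 0.75 ± 0.17 (adjusted p = 0.0209). The call of Mrpl38 was fragile: it held in 3 of 16 fits that each left out 1 array. It was also lost without the filter, with every probe set tested, with a second quantile normalization, with centring and with a replicate block. Mrps22 and Mrps35 rose by 0.71 each (SE 0.15 and 0.19) and Mrpl54 by 0.69 ± 0.18. Mrpl38, Mrpl54, Mrps22 and Mrps35 are among the proteins that bacterial ribosomes lack, whereas Mrpl47 is a relative of bacterial L29, at the tunnel exit. Each of these genes was higher in 4 of 4 arrays and free of overlap in both lines. The smallest rise that was called was that of Mrpl11 (0.42). That call was fragile too: it held in 4 of 16 fits that each left out 1 array. It was also lost without the filter, with centring, with a replicate block and with averaged replicates. The number of calls changed with single arrays: 1 gene was called without 3151T4 control replicate 4 and 1 without 3151T4 Mycl1 replicate 4. The share of all genes called in fits without a single array is not given here. These counts therefore do not show whether the 74 genes or all genes lost calls. Leaving out 3583T3 control replicate 1 gave 7, control replicate 2 gave 9, 3583T3 Mycl1 replicate 1 gave 7, 3151T4 control replicate 3 gave 8 and 3151T4 Mycl1 replicate 3 gave 6, whereas 32 were called without 3583T3 Mycl1 replicate 2. Without the 2 arrays that went against the label 27 were called, the same 21 among them, and all 74 changes stayed positive; the share of all genes called higher was then 10.4%.

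Because MYC proteins bind the E-box CACGTG, the promoters of the genes were read for it, as a description. RefSeq promoter windows (GRCm38.p6; 250 bases before to 50 after a start) were at hand for 65 of the 74 genes. The E-box was in the windows of 5 of these (7.69%), a share close to the 8.09% of 27025 genes and below the 12% of the 7120 tested genes with a window. It was in 0 of the windows of the 16 genes that rose with Mycl1 and had one, and in 3 of the 46 of those that rose with both vectors. The 5 matches follow with 30 bases on each side, or up to the start where that came first, to show the letters around the E-box (in capitals).
Mrpl2, chr17:46646060-46646125, plus strand: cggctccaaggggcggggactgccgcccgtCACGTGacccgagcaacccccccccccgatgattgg
Mrpl20, chr4:155802815-155802877, plus strand: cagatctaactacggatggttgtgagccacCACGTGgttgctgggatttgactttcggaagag
Mrpl36, chr13:73330936-73331001, plus strand: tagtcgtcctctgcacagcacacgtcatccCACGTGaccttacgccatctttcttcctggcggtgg
Mrpl37, chr4:107066993-107067058, minus strand: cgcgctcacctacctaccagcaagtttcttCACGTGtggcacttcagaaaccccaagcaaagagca
Mrps18c, chr5:100798566-100798631, plus strand: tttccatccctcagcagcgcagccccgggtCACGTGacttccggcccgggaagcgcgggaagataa

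The first base of the E-box, which reads the same on both strands, lay 131, 33, 43, 162 and 163 bases before the start in Mrpl2, Mrpl20, Mrpl36, Mrpl37 and Mrps18c. None of these 5 was called with Mycl1, and their changes were 0.43, 0.33, 0.40, 0.38 and 0.20. In Mrps18c the reverse complement of the ETS core named next follows directly on the E-box. A second set of letters, the ETS core CCGGAAGT, was searched on both strands because ETS factors are known at promoters of mitochondrial genes. It was in 11 of the 65 windows (16.9%) and in 4.31% of all genes. The NRF1 site GCGCATGC, named for another known regulator of such genes, was in 8 of the 65 windows (12.3%) and in 3.05% of all genes. Among tested genes these shares were 9.49% and 6.31%. The letters TTGGC, part of the site of nuclear factor I, were in 31 of 65 windows (47.7%), in 50.4% of all genes and in 55.6% of tested genes. A match describes letters and does not show binding. Of the 16 genes that rose with Mycl1, the ETS core was in the windows of Mrps22 and Mrps26, a further small-subunit protein that rose by 0.62. They are shown with the core, or its reverse complement, in capitals; these sequences were chosen after the values were seen.
Mrps22, chr9:98601680-98601720, minus strand: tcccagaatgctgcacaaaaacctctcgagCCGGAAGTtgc
Mrps26, chr2:130563712-130563756, plus strand: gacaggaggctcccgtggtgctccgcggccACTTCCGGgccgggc

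With both vectors, compared with untransfected cells, 54 of 74 genes rose and none fell. The background was also larger here: 16.3% of all genes tested were called higher and 14.7% lower. The median change was 0.52 (1.43-fold) against 0.03 over all genes, and 71 of 74 changes were positive. Both Nfib+Mycl1 arrays exceeded both control arrays in 61 of 74 genes in 3583T3 and in 64 of 74 in 3151T4, against 34.2% and 35.6% of all genes. Without the 2 arrays that went against the label 53 were called, 50 of them in both settings, with 17.7% of all genes called higher. The count was 35 without 3151T4 control replicate 4, a fit for which the share of all genes is not given here. All 14 macrophage and leukocyte genes tested fell here too, a count again favoured by the filter, as did 1 of 4 neuroendocrine genes (Uchl1, -1.17). Their part was not tested.

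Mrpl47 had the largest change with both vectors. Its signal was 10.03 and 9.90 on the control arrays of 3583T3 against 10.94 and 10.61, and 10.67 and 10.31 on those of 3151T4 against 11.58 and 11.54. That is a rise of 0.94 ± 0.17 (SE; limma, adjusted p = 0.00176), with 4 of 4 arrays higher and no overlap in either line. Mrpl38 rose by 0.90 ± 0.24 (adjusted p = 0.0116) and Mrps35 by 0.85 ± 0.19 (adjusted p = 0.00581). Mrps5 rose by 0.78 ± 0.21, Mrpl22, a protein lining the exit tunnel, by 0.74 ± 0.17, and Mrps6, a relative of bacterial S6, by 0.74 ± 0.25. Mrps6 missed the threshold without the 2 arrays that went against the label (0.75, adjusted p = 0.0587). Mrps30 and Mrpl23 had the smallest p values of the comparison and are described with their roles below.

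Among the 20 genes that were not called with both vectors, Mrpl44, Mrpl13 and Mrpl32 had negative values, -0.23, -0.09 and -0.03. Mrpl11 and Mrpl40, which rose with Mycl1 alone by 0.42 and 0.56, had 0.12 and 0.19 with both. Those differences between Mycl1 and Nfib+Mycl1 did not pass the test (for Mrpl11 -0.30 ± 0.13, adjusted p = 0.169). Over all comparisons of vectors, 62 of 74 genes were called at least once, beside 47.8% of all genes, and 0 were called lower, beside 26.7% of all genes. The 12 never called were Mrpl3, Mrpl10, Mrpl13, Mrpl14, Mrpl39, Mrpl44, Mrpl55, Mrpl57, Mrps2, Mrps12, Mrps18a and Mrps21.

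**Figure D2:**
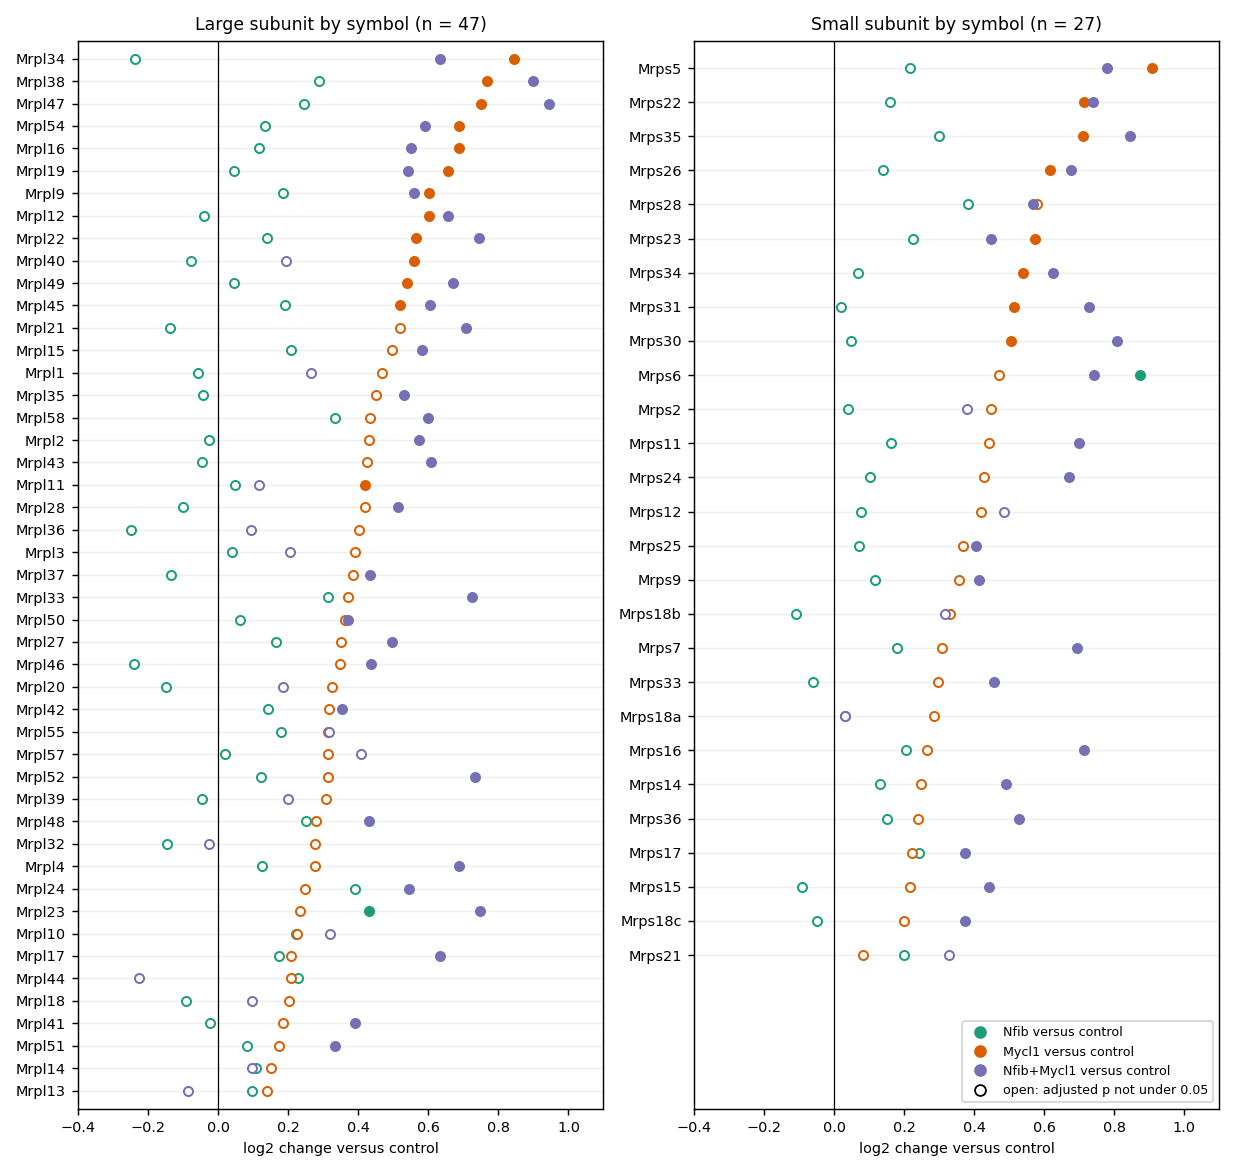
Log2 change versus control (horizontal axis) of each of the 74 genes with Nfib, Mycl1 or both (colours), for large-subunit (left, n = 47) and small-subunit symbols (right, n = 27), in order of the change with Mycl1; filled points passed an adjusted p under 0.05 in limma. All 74 Mycl1 points lie right of 0, from 0.08 to 0.91, and 71 of the 74 points of both vectors do, whereas the Nfib points straddle 0 with 53 positive.

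The Mycl1 vector could also be read against cells that already carried the other vector. In Nfib+Mycl1 versus Nfib, 32 of 74 genes rose and none fell, while 8.89% of all genes were called higher and 8.04% lower. The median was 0.41 against -0.02 over all genes, and 70 changes were positive. No macrophage or leukocyte gene was called in this comparison. Of 8 fibroblast genes 1 was lower (Pdgfra, -1.76), and their median was -0.70; their part was not tested. In 3583T3 both arrays of the pair of vectors exceeded both Nfib arrays in 35 of 74 genes, and in 3151T4 in 67 of 74, against 22.9% and 33% of all genes. Both arrays that went against the label belong to this comparison, and without them 48 genes were called, 30 of them in both settings, the median was 0.49 and 13.1% of all genes were called higher. The 32 calls fell to 0 without 3151T4 Nfib+Mycl1 replicate 3, to 0 without 3151T4 Nfib replicate 4, to 15 without 3151T4 Nfib replicate 3 and to 12 without 3151T4 Nfib+Mycl1 replicate 4. The share of all genes called in those fits is not given here, so the counts do not separate a loss in these genes from a loss in all genes.

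Mrpl34 led this comparison. It had 10.21 and 10.46 with Nfib and 10.78 and 10.48 with both in 3583T3, and 9.65 and 9.39 with Nfib and 10.91 and 11.02 with both in 3151T4. The groups were far apart in 3151T4, and in 3583T3 the closest values, 10.46 and 10.48, were those of the 2 arrays that went against the label. The change over both lines was 0.87 ± 0.20 (SE; limma, adjusted p = 0.0147), and 1.15 without those arrays. Mrpl21, a relative of bacterial L21, rose by 0.85 ± 0.18 (adjusted p = 0.0129), Mrps31 by 0.71 ± 0.15 and Mrpl46 by 0.68 ± 0.16 (adjusted p = 0.0129 and 0.0155). Mrpl43 rose by 0.66 ± 0.18 and Mrpl47 by 0.70 ± 0.17. Each of these genes was higher in 4 of 4 arrays, and those of Mrpl47 overlapped in 3583T3 only through the 2 arrays that went against the label (10.82 with Nfib, 10.61 with both), without which its change was 1.01.

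Mycl1 versus Nfib sets the vectors against each other. Here 26 of 74 genes were higher with Mycl1 and none lower, against 11.1% and 10.7% of all genes, and the median was 0.34 against 0.03. Both Mycl1 arrays exceeded both Nfib arrays in only 19 of 74 genes in 3583T3, which holds an array that went against the label. In 3151T4 they did so in 55 of 74. Over all genes the shares were 22.8% and 36.8%. Of 8 fibroblast genes 4 were lower with Mycl1 in the same comparison, and of 4 neuroendocrine genes tested 3 were higher (Uchl1 by 1.61, Ddc by 1.56 and Insm1 by 1.21). The filter shaped that last count. Insm1 was above log2 4 on only 2 of the 16 arrays, and Chga, Chgb, Syp and Dll3 were too dim to be tested. The part of the fibroblast and neuroendocrine genes in the result was not tested. Mrpl34 differed by 1.08 ± 0.20 (adjusted p = 0.0021), the only gene of the 74 past a doubling in any comparison of vectors over all 16 arrays. Mrps5 (0.69), Mrpl21 (0.66), Mrpl36 (0.65), Mrpl12 and Mrpl40 (0.64 each), Mrpl19 (0.61) and Mrpl46 (0.59) followed, with adjusted p from 0.00721 to 0.038. Mrps6 was at the other end with -0.40, not called. The count was 42 without the 2 arrays that went against the label, with 14.7% of all genes higher, and 40 without 3583T3 Nfib replicate 2 alone. It was 6 and 7 without 3151T4 Nfib replicates 4 and 3, 7 and 14 without 3151T4 Mycl1 replicates 4 and 3, and 17 without 3583T3 Mycl1 replicate 1. For these fits without a single array the share of all genes is not given here.

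Mycl1 versus control and Nfib+Mycl1 versus Nfib share no array and both add the Mycl1 vector. Across the 74 genes their changes were correlated (Pearson r = 0.51, Spearman rho = 0.51), which is a description over genes that share the same 16 arrays' normalization and are no independent replicates. Of the 21 genes called in the first and the 32 called in the second, 12 were shared, 57.1% of the former and 37.5% of the latter. For scale, 28.4% of the 74 genes were called in the first and 43.2% in the second. The overlap over all genes tested was not counted, and whether 12 exceeds a random overlap was not tested. The shared genes include Mrpl34, Mrpl47, Mrpl12, Mrps30 and Mrps22. Mrps5 and Mrpl11 were called in the first alone, with 0.91 and 0.42 there against 0.56 and 0.07, and Mrpl21 in the second alone, with 0.52 against 0.85; whether the changes differ between the comparisons was not tested. Across the genes, those with dimmer probe sets had somewhat larger changes with Mycl1 (r = -0.38 against mean signal, a description).

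**Figure D3:**
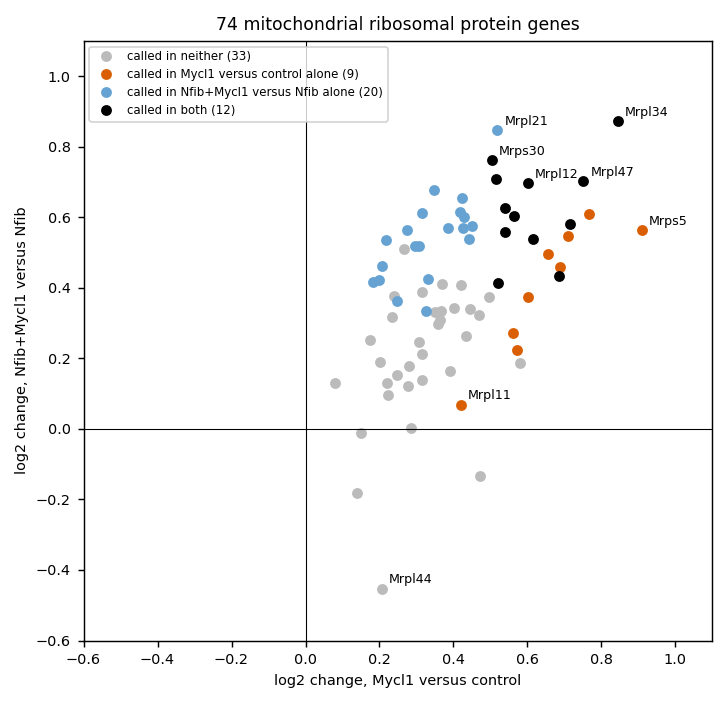
Log2 change of each of the 74 genes in Mycl1 versus control (horizontal) and in Nfib+Mycl1 versus Nfib (vertical), comparisons that share no array; colours give in which of them the gene was called. The 12 genes called in both lie upper right, led by Mrpl34 (0.84 and 0.87), and Mrpl44 lies lowest (0.21 and -0.45).

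With Nfib alone, compared with untransfected cells, 2 of 74 genes rose and none fell, while 5.3% of all genes were called higher and 4.96% lower. The median was 0.10 against 0.03, with 53 of 74 changes positive and 5 genes under an unadjusted p of 0.05. In the same comparison 13 of 14 macrophage and leukocyte genes fell, a count favoured by the filter. Of 8 fibroblast genes 5 rose, and 1 of 4 neuroendocrine genes fell (Uchl1, -1.73). The part of these genes was not tested. The 2 mitochondrial ribosomal protein genes that rose were Mrps6 and Mrpl23, and neither was called without the 2 arrays that went against the label (adjusted p = 0.0781 and 0.0755). Leaving out 3583T3 control replicate 1, 3583T3 Nfib replicate 2, or any of 5 arrays of 3151T4 (both control arrays, both Nfib arrays and Nfib+Mycl1 replicate 4) left 0 calls. The count was 1 without 3583T3 Nfib replicate 1, 3583T3 control replicate 2 or 3151T4 Nfib+Mycl1 replicate 3. For these fits, too, the share of all genes is not given here.

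Mrps6 differed between the lines in its pattern. Its signal in 3151T4 was 10.36 and 9.72 on the control arrays and 11.54 and 11.44 with Nfib, more than 1 log2 unit apart. In 3583T3 it was 9.91 and 10.18 on the control arrays and 9.91 and 10.77 with Nfib, the last being the array whose Mycl signal went against the label. The change over both lines was 0.87 ± 0.25 (SE; limma, adjusted p = 0.0399), made of 0.30 in 3583T3, where the arrays overlapped, and 1.45 in 3151T4. Its difference between the lines was 1.15 ± 0.35 (adjusted p = 0.0647) with all arrays and 1.58 ± 0.30 (adjusted p = 0.00395) without the 2 arrays. With Mycl1 it had 10.74 and 10.60 in 3583T3 and 10.30 and 10.41 in 3151T4, a change that was not called (0.47).

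Mrpl23, a relative of bacterial L23 at the mouth of the exit tunnel, was the only gene of the 74 called for Nfib on both backgrounds. Its signal in 3583T3 was 9.85 and 10.11 on the control arrays, 10.34 and 10.32 with Nfib, 10.32 and 9.92 with Mycl1, and 10.55 and 10.68 with both. In 3151T4 it was 9.90 and 9.59, 10.22 and 10.28, 9.86 and 10.29, and 10.63 and 10.59 in the same order. The Nfib arrays exceeded the control arrays, and the Nfib+Mycl1 arrays the Mycl1 arrays, in both lines without overlap. It rose by 0.43 ± 0.13 in Nfib versus control (SE; limma, adjusted p = 0.0404), by 0.51 ± 0.13 in Nfib+Mycl1 versus Mycl1 (adjusted p = 0.0352) and by 0.75 ± 0.13 in Nfib+Mycl1 versus control (adjusted p = 0.00117), and its change in Mycl1 versus control was not called (0.23). In Nfib+Mycl1 versus Mycl1 it was the 1 gene of 74 called, none being lower, beside 1.78% of all genes higher and 1.99% lower. The median of the 74 genes there was 0.09, with 51 positive and 14 under an unadjusted p of 0.05. Of 8 fibroblast genes 2 rose in that comparison (Dcn by 3.27 and Pdgfra by 2.10), and their part was not tested. That call was lost without the 2 arrays that went against the label (0.51, adjusted p = 0.0679), and without any of 6 single arrays: 3583T3 Nfib+Mycl1 replicates 1 and 2, 3583T3 Mycl1 replicate 2, 3151T4 Mycl1 replicate 3 and 3151T4 Nfib+Mycl1 replicates 3 and 4.

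**Figure D4:**
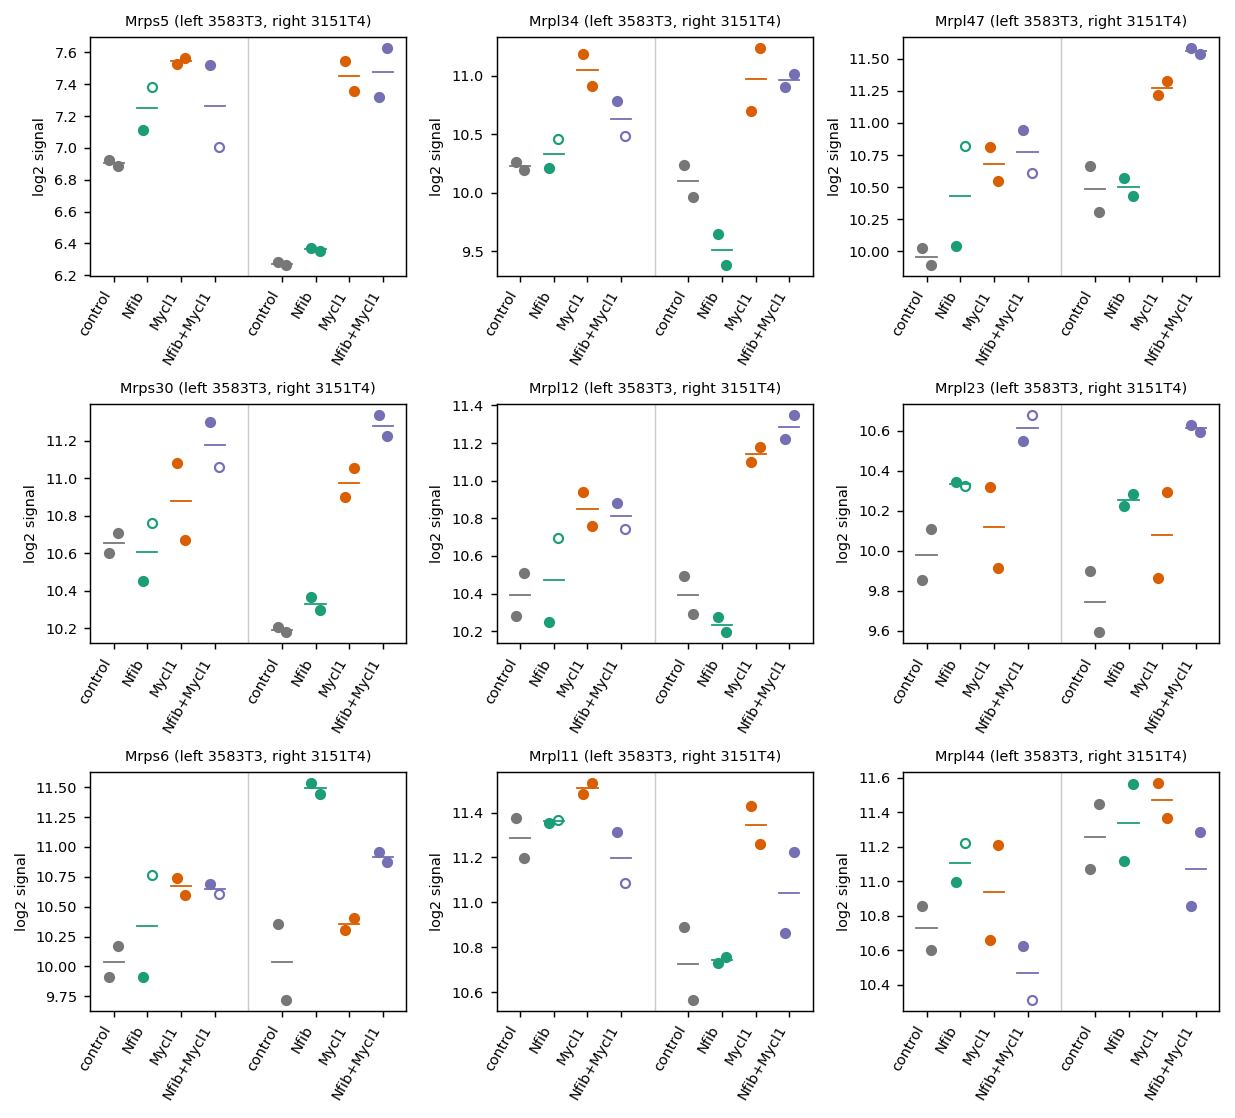
Log2 signal on each array for 9 genes, by line (left and right of the grey line) and vector (colours); short lines are group means of 2 arrays and open points the 2 arrays whose Mycl signal went against the label. Mrps5 in 3151T4 steps from 6.28 and 6.27 (control) to 7.55 and 7.36 (Mycl1), Mrpl23 is highest in the Nfib+Mycl1 groups of both lines, and Mrps6 peaks at 11.54 in 3151T4 with Nfib.

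The genes chosen for their role in the ribosome follow by place. In the stalk of the large subunit, which recruits the translation factors, Mrpl12 went with Mycl1. It had 10.28 and 10.51 on the control arrays and 10.94 and 10.76 with Mycl1 in 3583T3, and 10.49 and 10.29 against 11.10 and 11.18 in 3151T4. It rose by 0.60 ± 0.14 with Mycl1 (SE; limma, adjusted p = 0.0231), by 0.66 ± 0.14 with both (adjusted p = 0.00478) and by 0.70 ± 0.14 in Nfib+Mycl1 versus Nfib (adjusted p = 0.0129). The stalk protein Mrpl10, on which Mrpl12 sits, had 0.22 with Mycl1 and 0.32 with both, neither called. Mrpl11, at the base of the stalk, rose with Mycl1, a fragile call as given above, and was not called with both.

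Mrps30 carries a small-subunit symbol but sits in the large subunit. Its signal in 3151T4 was 10.21 and 10.18 on the control arrays, 10.36 and 10.30 with Nfib, 10.90 and 11.05 with Mycl1 and 11.34 and 11.22 with both. In 3583T3 it was 10.60 and 10.71, 10.45 and 10.76, 11.08 and 10.67, and 11.30 and 11.06 in the same order. The groups with Mycl1 lay above control without overlap in 3151T4, while in 3583T3 only the group with both vectors did. It rose by 0.50 ± 0.14 with Mycl1 (SE; limma, adjusted p = 0.0327) and by 0.81 ± 0.14 with both (adjusted p = 0.00127). In Nfib+Mycl1 versus Nfib the rise was 0.76 ± 0.14 (adjusted p = 0.0106). Mrpl45, which ties the ribosome to the inner membrane, rose by 0.52 ± 0.13 with Mycl1 and by 0.60 ± 0.13 with both (adjusted p = 0.0272 and 0.00483).

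The next genes carry a small-subunit symbol, which does not by itself place the protein in that subunit. Mrps12, a relative of the bacterial decoding protein S12, had 0.42 ± 0.18 with Mycl1 and 0.48 ± 0.18 with both, and neither passed (adjusted p = 0.135 and 0.0556). Mrps7, of the head of the small subunit, was not called with Mycl1 (0.31) and rose by 0.69 ± 0.16 with both (adjusted p = 0.00561). Among the S18 paralogs, Mrps18c rose by 0.37 ± 0.11 with both (adjusted p = 0.0236). Mrps18b had 0.32 and Mrps18a 0.03 in the same comparison, neither called, and Mrps18b rose by 0.42 ± 0.12 in Nfib+Mycl1 versus Nfib (adjusted p = 0.0284). Mrps36, since assigned to the oxoglutarate dehydrogenase complex of the citric acid cycle, had 0.24 with Mycl1, not called, and rose by 0.53 ± 0.14 with both (adjusted p = 0.0103).

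Split by the subunit in the symbol, 13 of 47 large-subunit and 8 of 27 small-subunit genes rose with Mycl1, with medians of 0.38 and 0.42. With both vectors 32 and 22 rose, with medians of 0.51 and 0.53. Split by number, 8 of the 42 genes numbered after a bacterial protein (up to L36 or S21) and 13 of the 32 numbered beyond that set rose with Mycl1, with medians of 0.36 and 0.43. With both vectors 27 rose in each of these sets. The splits were not tested.

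For 29 of the 74 genes more than 1 probe set passed the filter, which gave 45 further probe sets, tested in a fit of all probe sets. With Mycl1 all 45 had the sign of the chosen probe set, and 7 were called higher, in a fit that called 6.17% of all 14541 probe sets higher. With both vectors 41 had the same sign and 18 were called higher, 0 lower, beside 15.1% and 13.6% of all probe sets. Mrpl44, a protein with a ribonuclease fold, was a case of disagreement. Its chosen probe set had -0.23 with both vectors and another had -0.28, whereas the other probe set rose by 0.66 (adjusted p = 0.00348). Mrpl3, of the large subunit, likewise had 0.20 on the chosen probe set and a rise of 0.59 on another (adjusted p = 0.025). In the other direction Mrpl28 rose by 0.51 on the chosen probe set and had 0.04 on the other. All 6 probe sets of Mrpl15 and all 4 of Mrpl52 had positive values with both vectors, from 0.56 to 0.94 and from 0.73 to 0.81.

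In 3583T3 compared with 3151T4, over all vectors, 8 of 74 genes were higher and 29 lower, beside 27.7% and 30.9% of all genes. The 37 calls are 50% of the 74 genes, under the 58.6% of all genes called, and the median was -0.15 against -0.01. Without the 2 arrays that went against the label 38 were called, 34 of them in both settings. Of 4 neuroendocrine genes 3 were lower and 1 higher in 3583T3, and of 8 fibroblast genes 3 and 1. Among those neuroendocrine genes, Ddc and Insm1 were above log2 4 on only 8 and 2 of the 16 arrays. The part of these marker genes was not tested. Mrps28 differed most, lower in 3583T3 by 1.07 on the log2 scale (3583T3 minus 3151T4 -1.07 ± 0.14; limma, adjusted p = 6.72e-06). Its signal was 9.11 to 10.30 on the 8 arrays of 3583T3 and 10.41 to 11.12 on those of 3151T4, with no overlap. Mrps16, a relative of bacterial S16, differed by -0.91 ± 0.12, Mrpl57 by -0.87 ± 0.12, Mrpl10 by -0.68 ± 0.12 and Mrpl9 by -0.65 ± 0.13. On the other side Mrpl21 was higher in 3583T3 by 0.46 ± 0.13, Mrpl16 by 0.40 ± 0.09, Mrpl11 by 0.37 ± 0.09, Mrps18b by 0.33 ± 0.09 and Mrpl43 by 0.32 ± 0.13 (adjusted p from 0.00151 to 0.043). The call of Mrpl43 was lost without the 2 arrays that went against the label (adjusted p = 0.0627), and it held in 4 of 16 fits that each left out 1 array.

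The responses to the vectors did not pass a test of difference between the lines in any of the 74 genes. Limma called 0 for Nfib, 0 for Mycl1 and 0 for both, where 6.85%, 2.13% and 5.97% of all genes were called in any direction. At an unadjusted p under 0.05 there were 6, 2 and 4. Without the 2 arrays that went against the label the calls were 1 (Mrps6), 0 and 0. The median change with Mycl1 was 0.30 in 3583T3 and 0.46 in 3151T4, and with both it was 0.40 and 0.60. With Mycl1 all 74 genes had a positive change in both lines, and 65 had one with both vectors. Across the genes, the changes with both vectors in the 2 lines, which come from different arrays, had r = 0.60, and those with Mycl1 had r = 0.47. Mrps30 had the smallest p for Mycl1, with 0.22 in 3583T3 and 0.78 in 3151T4 (adjusted p of the difference 0.335), and Mrpl16 for both, with 0.23 and 0.87 (adjusted p of the difference 0.1). Single arrays moved these counts: the one for Nfib was 2 without 3583T3 Nfib replicate 1 and 1 without 3583T3 Nfib replicate 2 or 3151T4 control replicate 3, and the one for both was 2 without 3583T3 Nfib+Mycl1 replicate 1.

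Other genes of mitochondrial translation rose in part, beside 6.63% of all genes called higher with Mycl1 and 16.3% with both. Proteins of the mitochondrial ribosome that carry other symbols were 4 on the array: Dap3, Ptcd3, Chchd1 and Gadd45gip1. With Mycl1 Gadd45gip1 (0.67) and Ptcd3 (0.68) rose, and with both vectors all 4 rose, by 0.41 to 0.90. Of 21 genes for assembly of the ribosome 3 rose with Mycl1, among them Rcc1l (1.04) and the ribosomal RNA methyltransferase gene Mrm3 (0.71), and 6 with both. Of 9 translation factors 2 rose with Mycl1, the elongation factor gene Tufm (0.65) and the gene of the RNA-binding protein Lrpprc (0.76), and 4 with both, among them Gfm1 (0.95). Of 8 mitochondrial aminoacyl-tRNA synthetases, which charge the transfer RNAs, 2 and 3 rose, Rars2 and Ears2 in both comparisons. None of these genes was called lower in either comparison, beside 4.69% and 14.7% of all genes. With Nfib alone 1 of the 4 (Dap3, 0.43), 1 of the 21 and none of the 9 or the 8 rose. The 1 of 21 (4.76%) was near the 5.3% of all genes called higher with Nfib. Without the 2 arrays that went against the label 5 of the 21 assembly genes rose and 1 fell with Mycl1, 9 rose with both, and no gene of the 4 was called with Nfib. The shares of all genes called higher were then 10.4% with Mycl1, 17.7% with both and 5.21% with Nfib.

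Further from the ribosome, 8 of 18 genes for transcription and upkeep of mitochondrial DNA rose with Mycl1 and 10 with both. Tfam, which packs and transcribes mitochondrial DNA, rose by 0.59 with Mycl1, and Elac2, a processing enzyme of mitochondrial transfer RNAs, by 0.71 with Mycl1 and 1.15 with both. Of 21 import and chaperone genes 6 and 10 rose, Tomm40, the channel of the outer membrane, by 1.25 with Mycl1. Of 69 subunits of the respiratory chain and ATP synthase, 2 rose with Mycl1 (median 0.16), whereas with both vectors 26 rose and 2 fell (median 0.29). Of the proteins of the cytosolic ribosome, 1 of 38 tested genes rose with Mycl1 (median 0.14) and 19 with both (median 0.39). With Mycl1 the shares of these last 2 lists, 2.9% and 2.63%, lay below the 6.63% of all genes called higher. With both vectors 16.3% of all genes were called higher. Nucleolar genes that build the cytosolic ribosome had the larger medians, with 20 of 38 higher and 0.71 with Mycl1, and 28 of 38 and 0.80 with both. Between lists nothing was tested. Without the 2 arrays that went against the label the number that rose with Mycl1 was 13 of 18 for mitochondrial DNA, 11 of 21 for import, 3 of 69 for the respiratory chain and ATP synthase, 3 of 38 for the cytosolic ribosome and 27 of 38 for the nucleolar genes. The share of all genes called higher was then 10.4%.

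**Figure D5:**
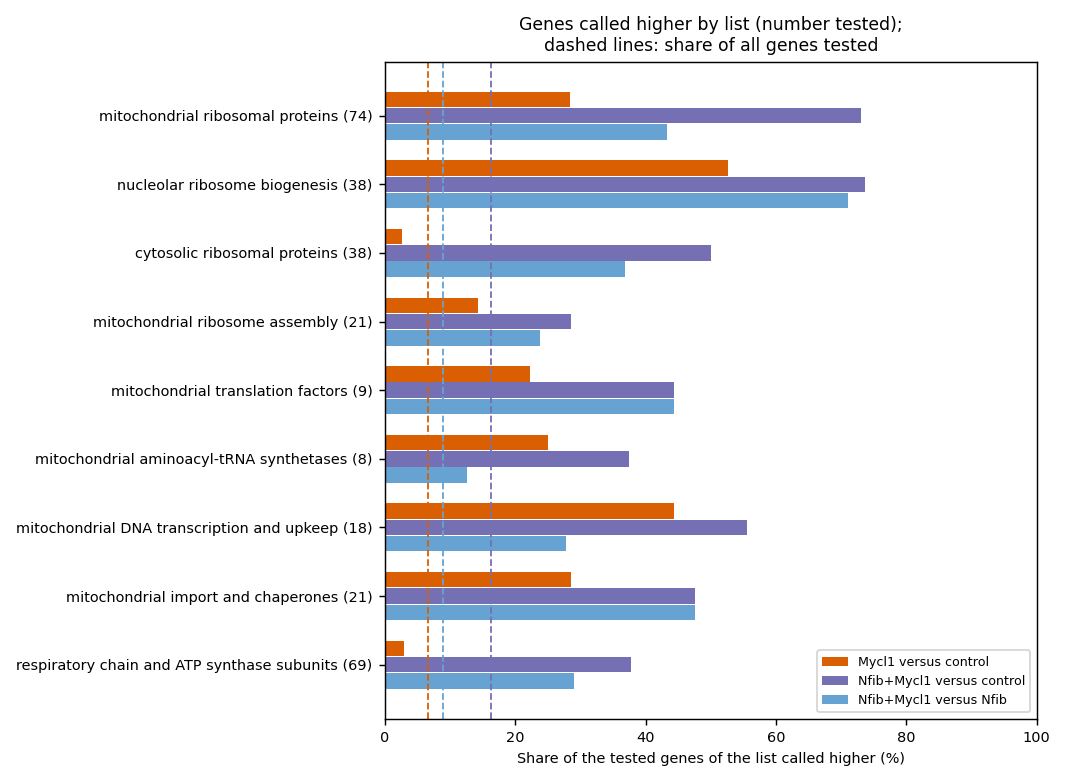
Share of the tested genes of each list called higher in limma (horizontal axis, %; number tested in brackets) in 3 comparisons (colours), with the share over all genes tested as dashed lines. For the 74 mitochondrial ribosomal protein genes the bars stand at 28.4%, 73% and 43.2%, beyond the dashed lines at 6.63%, 16.3% and 8.89%, while the respiratory chain and cytosolic ribosomal protein lists lie below the line with Mycl1 alone.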

How the data were processed

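The authors deposited a log2 value for each probe set on each array; the submitters' processing notes name GCRMA 2.20.0 and R 2.11.0. GCRMA subtracts sequence-dependent background and applies quantile normalization. The log2 scale was inferred from the range of values. Of 22690 probe sets, 20380 had 1 gene symbol. One probe set stood for each gene, and 8777 of 12393 genes passed the filter. All 16 arrays entered each limma fit (version 3.58.1, R 4.3.3; lmFit, then eBayes with trend). Vector and line effects came from an additive model (11 residual degrees of freedom), and line-dependent responses from a model of 8 group means (8 degrees). SE is the standard error of the fit; the number of arrays limits precision. Named genes were those fixed for their role plus, in each vector comparison, up to 8 called risers and 5 called fallers by size, where the lines shared a sign (5 and 5 between lines). Members and lists were chosen with earlier results of these data known. Alternatives comprised the filter, all probe sets, requantiling, median centring, a replicate block, averaged replicates, fits of 2 vectors, removal of the 2 doubted arrays (Mycl signal against the label) and removal of each array. Code was tested on simulated data.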

Additional observations from a re-analysis of the deposited data

Results flagged for a closer look

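Each group held 2 arrays, so single arrays were not screened as outliers. Only the 31 genes named by the rule above were screened for lines that moved in opposite directions, so the other genes may hold further cases. Among the 31, in 3 changes every array of one line moved one way and every array of the other line the opposite way. Mrpl11 in Nfib+Mycl1 versus Nfib changed by -0.16 in 3583T3 and by 0.30 in 3151T4, a difference between the lines of 0.46 that was not tested. Its signals in 3583T3 were 11.35 and 11.37 with Nfib and 11.31 and 11.09 with both, the second of each pair being a doubted array. The changes in Nfib versus control that follow include the doubted array 3583T3 Nfib replicate 2. Mrpl57 in Nfib versus control changed by 0.38 in 3583T3 and by -0.34 in 3151T4, and the difference of -0.72 did not pass limma's test (adjusted p = 0.166). Mrps18c in Nfib versus control changed by 0.17 and -0.27, and the difference of -0.45 did not pass either (adjusted p = 0.259).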

How the results depend on the processing

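Counts of the 74 genes called are given in the order Nfib, Mycl1 and both versus control, both versus Mycl1, both versus Nfib and Mycl1 versus Nfib (2, 21, 54, 1, 32 and 26 as reported). They were 0, 8, 45, 0, 22 and 17 with the replicate block and 0, 0, 4, 0, 0 and 0 with averaged replicates, which leave few degrees of freedom. The replicate numbers showed no steady pairing of the samples. Of 12 correlations of same-numbered deviations within a line the highest was 0.31. The lowest, -0.74, was between 3583T3 Nfib and Nfib+Mycl1, the groups of the doubted arrays, where the labels themselves are in doubt. The next lowest was -0.40 (3583T3 control and Mycl1). Without the 2 doubted arrays the counts were 0, 27, 53, 0, 48 and 42, with 1 gene for the difference between lines in the response to Nfib. With only the 2 vectors compared they were 1, 27, 53, 0, 24 and 6. Centring gave 1 for Nfib versus control. Centring and the second quantile normalization each gave 1 for the difference between lines in the response to Nfib. Leaving out each array gave ranges of 0 to 2, 1 to 32, 35 to 55, 0 to 1, 0 to 44 and 6 to 40, of 31 to 37 for the lines, and of 0 to 2, 0 and 0 to 2 for the 3 differences between lines. The cause of these shifts was not tested. Apart from the fit without the 2 doubted arrays, the share of all genes called in the alternatives is not given here. The counts therefore do not separate a shift in these genes from a shift in all genes. The other alternatives kept the counts within 1.5 times. Of 61 named changes 0 reversed under any alternative; 17 of 51 missed the threshold with the block, 52 of 61 with averaged replicates and 5 of 61 without the doubted arrays. No scaling moved the median of all genes by more than 0.06. Averaged replicates could not be run for the differences between lines, and the replicate block and the fit of only the vectors compared were not run for the comparison of lines.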
